A study of Mus musculus with 12 samples.

Results

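The genes described here encode 6 muscle ubiquitin ligases, Fbxo32, Trim63, Trim54, Trim55, Fbxo30 and Fbxo40, and 4 muscle kelch proteins, Klhl31, Klhl33, Klhl40 and Klhl41. They are 10 of the 28116 gene symbols in the deposited expression table, and all 10 are among the 14063 genes that reached the level required for testing. They were picked by name, as atrophy ligases beside muscle kelch proteins, and Klhl31 and Klhl33 were picked because they stood out between the injected arms on day 3. For that reason the difference between the arms on day 3 is given below as a description, with no test for any of the 10.

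The study sequenced RNA from the tibialis anterior muscle of mdx mice, which carry a mutation that removes dystrophin from muscle fibres and serve as a model of Duchenne muscular dystrophy. Every muscle received cardiotoxin, a venom protein that destroys fibres and starts regeneration, so no group holds uninjured or healthy muscle. The 4 groups, each of 3 animals, were anti-miR-106b day 7, scrambled day 7, anti-miR-106b day 3 and scrambled day 3. All mice were of strain C57BL/10ScSn-Dmdmdx/J and 4 months old. In the anti-miR-106b groups (antimiR106b in the labels) the injection also held a compound directed against the microRNA miR-106b, and in the scrambled groups (antimiR-Scrambled) a control compound of scrambled sequence. The sample labels give collection on day 3 or day 7 after injection, whereas the design text names a day other than 7 in 1 place, and the labels were followed. The sources do not say whether a mouse gave a muscle to more than 1 group.

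Ubiquitin ligases attach ubiquitin to chosen proteins and so mark many of them for the proteasome. Fbxo32 (atrogin-1, or MAFbx) and Trim63 (MuRF1) are the ligases best known for rising in wasting muscle, where FOXO transcription factors and the glucocorticoid receptor induce them. F-box proteins hold the substrate in ligases built on cullin 1, TRIM proteins carry their own RING domain, and many BTB-kelch proteins hold the substrate in ligases built on cullin 3. Klhl40 and Klhl41 act on the sarcomere in another way too, since both stabilise proteins of the thin filament, and loss of either in people causes nemaline myopathy.

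A microRNA binds messages through its seed, bases 2 to 8, and the mature sequence is shown because the seed is what a match in these genes would pair with. The microRNA under study comes from chr5:138165787-138165807 on the minus strand (RefSeq, GRCm38.p6). Relatives with the same seed are set beside it, and capitals mark the seed.
mmu-miR-106b-5p: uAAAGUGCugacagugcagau
mmu-miR-93-5p: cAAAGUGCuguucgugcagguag
mmu-miR-17-5p: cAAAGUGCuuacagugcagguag
mmu-miR-20a-5p: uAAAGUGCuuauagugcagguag

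The 3′ UTR of each gene, from 1 GENCODE M21 transcript on GRCm38, was searched for matches to that seed. None of the 10 held GCACTTT, the match to bases 2 to 8, which 14.4% of 12939 tested genes with a 3′ UTR held. None held the longer GCACTTTA, present in 4.41% of those genes. Fbxo32 alone held CACTTTA, the match to bases 2 to 7 followed by A, which 13.6% of genes held. The 6-base core CACTTT, which lies within all of the longer matches, was found in 5 of the 10 genes, Fbxo32, Trim63, Fbxo40, Klhl31 and Klhl41, with 8 matches in all, and in 41.7% of genes. The windows of Fbxo32, which holds the longest match, and of Klhl31, which holds 2 cores, are printed with the match in capitals; Klhl33 has no match to print.
Fbxo32, chr15:58176071-58176098, minus strand: gtgggttgaaCACTTTAactaaacttgg
Fbxo32, chr15:58178486-58178513, minus strand: gagttataccCACTTTgaagtgattcag
Klhl31, chr9:77657237-77657264, plus strand: ttgttaatacCACTTTgcaaatcaaact
Klhl31, chr9:77658025-77658052, plus strand: tagtacatgcCACTTTgtagatgggacg
These matches are letters found in a search. No binding was measured.

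RefSeq promoters (GRCm38.p6) were matched for 8 of the 10 genes and searched on both strands from 250 bases before the start of transcription to 50 after it. Fbxo32 and Trim55 had no matched promoter and were not searched. A match to the binding motif of MEF2, a family of factors that drive muscle genes, was found in 3 of the 8, Klhl33, Fbxo40 and Klhl41, and in 3.19% of 32851 promoters. A gene was counted if any of its listed starts held a motif, whereas the shares of all promoters count each start. Klhl33 and Fbxo40 each have another listed start, which held no MEF2 match and is not printed. The CArG box bound by serum response factor was in 0 of the 8 and in 1.63% of all promoters. The E-box CANNTG, bound by the myogenic factors and others, was in 6 of the 8 and in 72.3% of all. The M-CAT motif CATTCC was in 3 of the 8 and in 14.7% of all, and TGTTCT in 3 of the 8 and in 19.0%. The 200 bases before the start are printed for the 3 genes with a MEF2 match, in capitals. Klhl33 and Fbxo40 had the largest changes between days of the 10 and Klhl41 the highest level per kilobase. Klhl41 rose less between days than Trim54 and Klhl31, which held no MEF2 match. A link between motif and change was not tested. Trim63 is printed because GTAAACA, a FOXO motif held by 3.65% of promoters, lies directly beside TGTTCT, 1 arm of a glucocorticoid response element and held by 19.0%; capitals mark the pair, with the FOXO letters on the reverse strand.
Klhl33, chr14:50897484-50897683, minus strand: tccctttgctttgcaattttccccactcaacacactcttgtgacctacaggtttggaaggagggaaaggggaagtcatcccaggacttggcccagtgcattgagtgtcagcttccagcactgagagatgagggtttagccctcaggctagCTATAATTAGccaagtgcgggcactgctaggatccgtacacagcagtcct
Fbxo40, chr16:36990468-36990667, minus strand: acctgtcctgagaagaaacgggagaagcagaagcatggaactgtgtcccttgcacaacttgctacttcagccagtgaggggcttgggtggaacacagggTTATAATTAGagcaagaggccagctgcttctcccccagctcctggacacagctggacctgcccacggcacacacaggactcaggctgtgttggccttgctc
Klhl41, chr2:69669920-69670119, plus strand: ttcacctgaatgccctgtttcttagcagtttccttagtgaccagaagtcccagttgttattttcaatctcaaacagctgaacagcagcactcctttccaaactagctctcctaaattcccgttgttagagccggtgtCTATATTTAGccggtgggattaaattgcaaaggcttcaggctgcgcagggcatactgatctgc
Trim63, chr4:134314920-134315119, plus strand: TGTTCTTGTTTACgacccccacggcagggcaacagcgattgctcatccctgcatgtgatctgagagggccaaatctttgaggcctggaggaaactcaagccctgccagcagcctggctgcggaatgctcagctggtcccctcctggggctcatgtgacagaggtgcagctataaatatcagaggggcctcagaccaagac

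The libraries held 28857739 to 42825246 reads assigned to genes, and Fbxo30, the lowest of the 10 genes, still had 552 to 1042 reads in each. Expression is given as log2 CPM, the logarithm of a gene's share of the reads in its library, in which a difference of 1 is a doubling. The tissue label fits the data: the 6 markers of mature fast fibres summed to 118100 to 133600 CPM in anti-miR-106b day 7, 127400 to 139600 in scrambled day 7, 47930 to 52430 in anti-miR-106b day 3 and 71630 to 84350 in scrambled day 3. Markers of regenerating fibres, 6 of 6 detected in each group, summed to 211 to 362.7, 185.3 to 381.5, 2751 to 3034 and 1571 to 2033 CPM in the same order of groups. The 6 macrophage markers summed to 153.8 to 209, 139.5 to 204.7, 1269 to 1426 and 900.7 to 923.9 CPM. Of 4 cardiac muscle markers 3 were used, at a summed 1.75 to 3.49 CPM over the 12 libraries, which bears on Trim55 and Trim63, also made by the heart. RNA came from whole muscle, so fewer fibres and less RNA per fibre cannot be told apart.

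Set per kilobase of exon, so that genes can be compared, Klhl41 was the highest of the 10 in every group. It stood at 463 ± 40.1 CPM per kilobase in anti-miR-106b day 7, 381 ± 38.5 in scrambled day 7, 260 ± 10.4 in anti-miR-106b day 3 and 313 ± 17.4 in scrambled day 3 (SD, n = 3 each). Fbxo30 was the lowest in every group, at 3.73 ± 0.0752, 3.75 ± 0.32, 4.10 ± 0.222 and 4.19 ± 0.182 CPM per kilobase in that order of groups. Trim54 came second on day 7, at 150.0 ± 5.52 in anti-miR-106b muscles and 145 ± 20.9 CPM per kilobase in scrambled muscles. In scrambled muscles on day 7, Klhl31 at 76.7 ± 5.24, Klhl40 at 74.8 ± 2.09 and Fbxo40 at 69.7 ± 9.04 CPM per kilobase followed, where Klhl31 and Klhl40 differed by less than the SD of Klhl31 and both lay within the SD of Fbxo40. Trim63 at 57.9 ± 9.12, Klhl33 at 36.6 ± 3.13, Trim55 at 28.2 ± 0.487 and Fbxo32 at 27.9 ± 9.65 CPM per kilobase sat below them, with the last pair again inside the spread. On day 3 Klhl33 was second to last, at 6.27 ± 0.556 CPM per kilobase in anti-miR-106b muscles and 14.3 ± 2.35 in scrambled muscles.

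Most of the ligase and kelch genes were higher on day 7 than on day 3 on the authors' scaling, although for the smaller changes the sign depended on it. In anti-miR-106b muscles 9 of 10 rose and none fell (limma, adjusted p below 0.05), where 37.9% of all tested genes rose and 78.7% changed in either direction. In scrambled muscles 7 of 10 rose and none fell, where 32.9% of all tested genes rose and 68.2% changed. With total-read scaling 6 rose and 1 fell in anti-miR-106b muscles and 4 rose and 1 fell in scrambled muscles, the gene that fell being Fbxo30 in both, and with quantile normalization 8 and 5 rose in these arms and none fell. Every day 7 library was above every day 3 library for 8 of the 10 genes in anti-miR-106b muscles and below for 1, Fbxo30, where 81.1% of all tested genes did not overlap in either direction, and above for 6 of the 10 in scrambled muscles, where 72.4% did not overlap. The median difference of the 10 was 0.96 log2 in anti-miR-106b muscles, against -0.02 for all tested genes, and 0.46 in scrambled muscles, against -0.00 for all. Scaled to total reads instead, which moved the median of all genes by -0.63 log2 in anti-miR-106b and -0.41 in scrambled muscles and every one of the 10 genes alike, Trim55, Trim63 and Klhl40 turned negative in both arms and Klhl41 in scrambled muscles. Relative to the median of all genes, 9 of the 10 were above it under that scaling in each arm, and 9 in anti-miR-106b and 6 in scrambled muscles with quantile normalization, which moved the median by 0.16 and 0.14 log2. Beside the values given for single genes below, total-read scaling took the rises of Fbxo40 to 1.06 log2 in anti-miR-106b and 0.56 in scrambled muscles, those of Klhl31 to 0.69 and 0.42 and those of Trim54 to 0.67 and 0.52, all still past the threshold. Of all genes that changed, 48.2% were higher on day 7 in each arm on the authors' scaling, 18.1% in anti-miR-106b and 14.8% in scrambled muscles with total-read scaling, and 57.4% and 60.7% in these arms with quantile normalization. The day 3 libraries used here are those in which Klhl31 and Klhl33 were seen to stand out, so for that pair these changes are not free of the choice. That pair is included in the counts above.

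**Figure D1:**
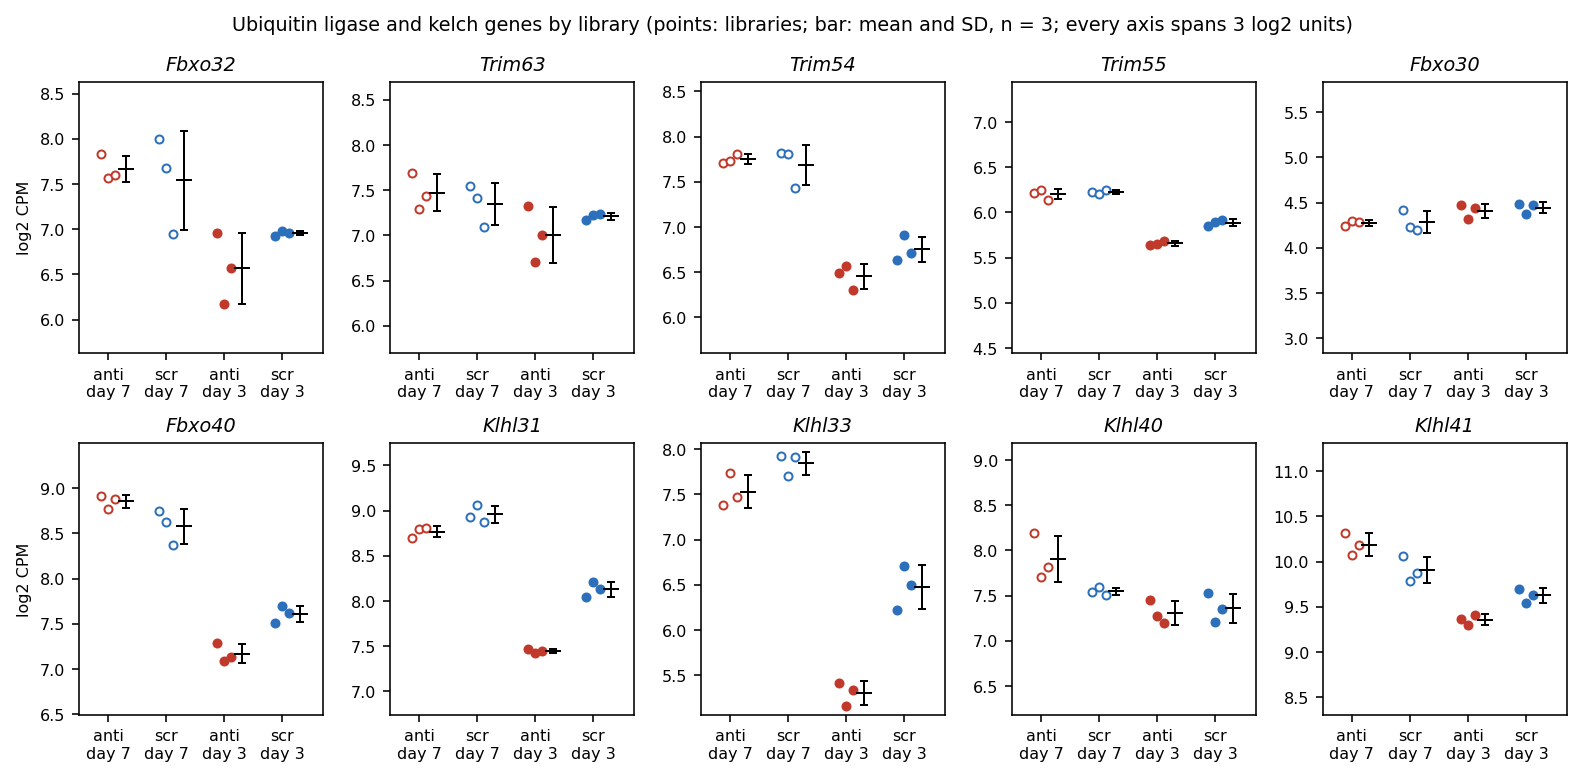
Log2 CPM of each gene in the 12 libraries (points), by group on the horizontal axis, with the mean and SD of 3 libraries as a bar; red marks anti-miR-106b (anti) and blue scrambled (scr), open points day 7 and filled points day 3, and every vertical axis spans 3 log2 units. Klhl33 shows the widest separation of days, 7.39 to 7.74 in anti-miR-106b day 7 and 5.16 to 5.41 in anti-miR-106b day 3, while Fbxo30 stays between 4.20 and 4.48 in all 12 libraries.

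Of the 2 classical atrophy ligases, Fbxo32 passed the test between days in both arms. Fbxo32 (ENSMUSG00000022358.7, chr15:58175879-58214932) was at 7.83, 7.57 and 7.60 log2 CPM in anti-miR-106b day 7 and 6.96, 6.18 and 6.57 in anti-miR-106b day 3. In scrambled muscles Fbxo32 was at 8.003, 7.67 and 6.94 on day 7 and 6.93, 6.98 and 6.96 log2 CPM on day 3. The days did not overlap in anti-miR-106b muscles, and in scrambled muscles 1 day 7 library fell among those of day 3. The rise was 1.10 ± 0.22 log2 in anti-miR-106b muscles (SE, adjusted p = 0.000397, limma), and 0.47 with total-read scaling (adjusted p = 0.0487). In scrambled muscles it was 0.58 ± 0.22 (adjusted p = 0.03, limma), a call that rests on few libraries: it was lost without any 1 of the 3 scrambled day 3 libraries (adjusted p 0.0568 to 0.0687), without scrambled day 7 replicate 1 (0.35 log2, adjusted p = 0.142) or 2 (0.0922), and with quantile normalization (0.08) or total-read scaling (0.18 log2, adjusted p = 0.457). Without scrambled day 7 replicate 3 it was 0.88 (adjusted p = 0.000452).

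Trim63, the ligase that acts on myosin and other thick filament proteins, passed it in 1 arm. Trim63 (ENSMUSG00000028834.13, chr4:134315120-134329629) was at 7.69, 7.29 and 7.43 log2 CPM in anti-miR-106b day 7 and 7.32, 6.70 and 7.00 in anti-miR-106b day 3. In scrambled muscles Trim63 was at 7.54, 7.42 and 7.09 on day 7 and 7.17, 7.23 and 7.24 log2 CPM on day 3. The days overlapped in both arms. Trim63 passed the test in anti-miR-106b muscles, at 0.46 ± 0.15 log2 (adjusted p = 0.00994, limma), and not in scrambled muscles, at 0.14 ± 0.15 (adjusted p = 0.421). The call in anti-miR-106b muscles was lost without anti-miR-106b day 3 replicate 2 (0.31 log2, adjusted p = 0.0614), without anti-miR-106b day 7 replicate 1 (0.35, adjusted p = 0.0543) and with quantile normalization (0.16, adjusted p = 0.277), and total-read scaling turned it to -0.16.

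Fbxo32 and Trim63 were also the most variable of the 10 between animals of the same group. The SD within groups was 0.343 log2 for Fbxo32, larger than that of 98.2% of 757 genes of like level, whose median SD was 0.0972. For Trim63 it was 0.221 log2, larger than that of 94.0% of 714 genes of like level. Trim55 was at the other end, at 0.0378 log2, with 1.22% of 1564 genes of like level less variable. The order of the 3 libraries by Fbxo32 was also their order by Trim63 in 3 of the 4 groups, the exception being scrambled day 3, where the Fbxo32 values lay within 0.05 log2 of each other. Fbxo40 shared the order of Fbxo32 in every group, so such agreement was not particular to Fbxo32 and Trim63. Over all 12 libraries the gene most like Trim63 was Fbxo32 (Pearson r = 0.927), followed by Samd8 (0.911) and Nup210 (0.895). The genes most like Fbxo32 were Rhpn2 (0.967), Gm49417 (0.962) and Rhou (0.960). These coefficients describe the 12 libraries, which share the difference between days. In deviations from the group means, Fbxo32 correlated with Trim63 at 0.920 and with Fbxo40 at 0.905 (Pearson r). Fbxo40 and Trim63 correlated at 0.853 in these deviations.

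**Figure D2:**
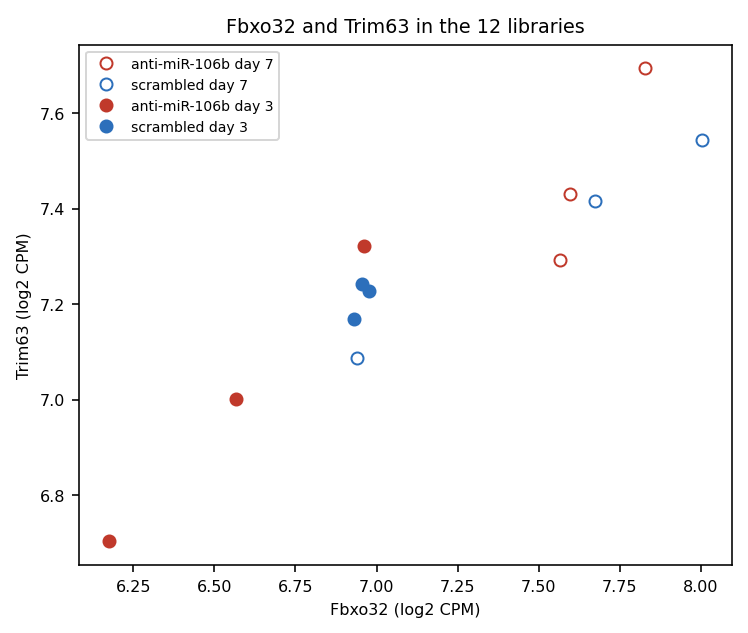
Log2 CPM of Trim63 (vertical axis) against that of Fbxo32 (horizontal axis), 1 point per library, open for day 7 and filled for day 3, red for anti-miR-106b and blue for scrambled. Anti-miR-106b day 3 runs from 6.18 and 6.70 to 6.96 and 7.32, scrambled day 7 from 6.94 and 7.09 to 8.003 and 7.54, and the scrambled day 3 libraries sit close together.

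Both relatives of Trim63 passed the test in both arms. Trim54 (MuRF3, ENSMUSG00000062077.14), which binds microtubules and the sarcomere, was at 7.71, 7.74 and 7.81 log2 CPM in anti-miR-106b day 7 and 6.49, 6.57 and 6.30 in anti-miR-106b day 3. Trim54 in scrambled muscles was at 7.82, 7.81 and 7.43 on day 7 and 6.64, 6.91 and 6.72 log2 CPM on day 3. In both arms every day 7 library was above every day 3 library. The rise of Trim54 was 1.30 ± 0.11 log2 in anti-miR-106b muscles (adjusted p = 5.59e-08, limma) and 0.93 ± 0.11 in scrambled muscles (adjusted p = 3.83e-06). Trim55 (MuRF2, ENSMUSG00000060913.6), which links to titin and microtubules, ranged from 6.14 to 6.25 log2 CPM in anti-miR-106b day 7, 6.20 to 6.25 in scrambled day 7, 5.64 to 5.69 in anti-miR-106b day 3 and 5.85 to 5.92 in scrambled day 3. Its rise was small and tight, 0.54 ± 0.05 log2 in anti-miR-106b muscles (adjusted p = 4.80e-07) and 0.34 ± 0.05 in scrambled muscles (adjusted p = 8.30e-05, limma), and total-read scaling turned both negative, to -0.08 and -0.07.

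The remaining F-box genes were the gene with the second largest change of the 10 and the gene with the lowest level. Fbxo40 (ENSMUSG00000047746.14, chr16:36963460-36990467), a muscle-restricted F-box protein that directs breakdown of the insulin receptor substrate IRS1, was at 8.91, 8.77 and 8.88 log2 CPM in anti-miR-106b day 7 and 7.29, 7.09 and 7.14 in anti-miR-106b day 3. In scrambled muscles Fbxo40 was at 8.74, 8.62 and 8.37 on day 7 and 7.51, 7.69 and 7.62 log2 CPM on day 3. No library of one day reached those of the other. Fbxo40 rose by 1.68 ± 0.09 log2, or 3.21-fold, in anti-miR-106b muscles (adjusted p = 1.76e-09, limma) and by 0.97 ± 0.09, or 1.96-fold, in scrambled muscles (adjusted p = 8.33e-07). Fbxo30 (MUSA1, ENSMUSG00000047648.13), a ligase gene that denervation induces and BMP signalling restrains, was at 4.24 to 4.30 log2 CPM in anti-miR-106b day 7, 4.20 to 4.42 in scrambled day 7, 4.32 to 4.47 in anti-miR-106b day 3 and 4.37 to 4.48 in scrambled day 3. It was the only gene of the 10 with a negative difference in both arms, -0.14 ± 0.08 log2 in anti-miR-106b (adjusted p = 0.115, limma) and -0.16 ± 0.08 in scrambled muscles (adjusted p = 0.074), neither past the threshold. Quantile normalization turned the first to 0.01, and with total-read scaling both passed, at -0.76 (adjusted p = 5.45e-07) and -0.57 (adjusted p = 1.85e-05).

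Among the kelch genes, Klhl33 and Klhl31 changed most between days. Klhl33 (ENSMUSG00000090799.2, chr14:50888582-50897507) was at 7.39, 7.74 and 7.47 log2 CPM in anti-miR-106b day 7 and 5.41, 5.16 and 5.33 in anti-miR-106b day 3. In scrambled muscles Klhl33 was at 7.93, 7.70 and 7.91 on day 7 and 6.23, 6.71 and 6.49 log2 CPM on day 3. The days were far apart in both arms. Klhl33 rose 4.69-fold in anti-miR-106b muscles (2.23 ± 0.12 log2, adjusted p = 1.58e-09, limma), the 70th highest difference of the 14063 tested genes. In scrambled muscles it rose 2.58-fold (1.37 ± 0.12 log2, adjusted p = 4.17e-07, limma), the 59th highest. Klhl33 was chosen in part from these day 3 libraries, so its p-values and ranks between days are not free of that choice.

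Klhl31 (ENSMUSG00000044938.8, chr9:77636500-77660127), whose loss in mice causes a myopathy with accumulation of filamin C, was at 8.70, 8.79 and 8.81 log2 CPM in anti-miR-106b day 7 and 7.47, 7.42 and 7.45 in anti-miR-106b day 3. In scrambled muscles Klhl31 was at 8.93, 9.07 and 8.88 on day 7 and 8.05, 8.21 and 8.13 log2 CPM on day 3. Again the days were far apart, and each group was tight. The rise was 1.32 ± 0.07 log2 in anti-miR-106b (adjusted p = 1e-09, limma) and 0.83 ± 0.07 in scrambled muscles (adjusted p = 1.99e-07). As for Klhl33, the day 3 libraries took part in the choice of Klhl31, so these p-values are not free of it. The genes most like Klhl31 over the 12 libraries were B3galnt2 (Pearson r = 0.997), Ube2d1 (0.996) and Ampd1 (0.996), and those most like Klhl33 were Kif16b (0.995), Man2a2 (0.994) and Ghr (0.993).

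Of the kelch genes of nemaline myopathy, Klhl41 passed the test in both arms and Klhl40 in 1. Klhl41 (ENSMUSG00000075307.3, chr2:69670120-69684230), which stabilises nebulin, was at 10.32, 10.07 and 10.18 log2 CPM in anti-miR-106b day 7 and 9.36, 9.30 and 9.41 in anti-miR-106b day 3. In scrambled muscles Klhl41 was at 10.07, 9.79 and 9.87 on day 7 and 9.70, 9.54 and 9.63 log2 CPM on day 3. The days were separate in both arms, in scrambled muscles by less than the spread within day 7. Its rise was 0.83 ± 0.09 log2 in anti-miR-106b (adjusted p = 8.86e-07, limma) and 0.28 ± 0.09 in scrambled muscles (adjusted p = 0.0113). The larger was 0.27 with quantile normalization (adjusted p = 0.0116) and 0.21 with total-read scaling (adjusted p = 0.0464), and the smaller turned negative with quantile normalization (-0.15) and total-read scaling (-0.12).

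Klhl40 (ENSMUSG00000074001.3, chr9:121777607-121783818), which stabilises nebulin and leiomodin 3, was at 8.19, 7.70 and 7.82 log2 CPM in anti-miR-106b day 7 and 7.45, 7.27 and 7.20 in anti-miR-106b day 3. In scrambled muscles Klhl40 was at 7.54, 7.59 and 7.51 on day 7 and 7.53, 7.21 and 7.35 log2 CPM on day 3. The days were separate in anti-miR-106b muscles and overlapped in scrambled muscles. Klhl40 rose by 0.60 ± 0.11 log2 in anti-miR-106b muscles (adjusted p = 0.000264, limma), which was 0.27 with quantile normalization (adjusted p = 0.0445) and -0.03 with total-read scaling. It had a difference of 0.19 ± 0.11 in scrambled muscles that did not pass (adjusted p = 0.162), and that quantile normalization turned to -0.02 and total-read scaling to -0.22.

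On day 7 the arms were close. None of the 10 genes differed between anti-miR-106b and scrambled muscles past the threshold (limma), where 9 of the 14063 tested genes, or 0.064%, did, and voom weights on the reads also gave 0. Of all genes that passed, 1 of 9 was higher on the authors' scaling, 7 of 29 with total-read scaling and 6 of 17 with quantile normalization. The count of 9 rests on single libraries: it ran from 0 without scrambled day 7 replicate 2 to 457, or 3.25% of genes, without scrambled day 7 replicate 1, and was 70 without anti-miR-106b day 7 replicate 2. At an unadjusted p below 0.05 there were 5 of the 10, Fbxo40, Klhl31, Klhl33, Klhl40 and Klhl41, where 11.2% of all genes passed. The median difference of the 10 was 0.09 log2, against 0.01 for all tested genes. Every anti-miR-106b library was above every scrambled library for 3 genes, Fbxo40, Klhl40 and Klhl41, and below for Klhl31, where 10.9% of all tested genes did not overlap in either direction. Each bound below is the difference less or plus 2 SE. Klhl40 differed by 0.36 log2, with bounds of 0.13 and 0.59 (adjusted p = 0.258, limma). Klhl41 differed by 0.28, with bounds of 0.10 and 0.46 (adjusted p = 0.253), and its closest libraries of opposite arms were equal at 10.07 to 2 decimals. Fbxo40 differed by 0.28 as well, with bounds of 0.09 and 0.46 (adjusted p = 0.285). These 3 genes were higher in anti-miR-106b muscles, and without scrambled day 7 replicate 1 Klhl41 (0.36 log2, adjusted p = 0.039) and Fbxo40 (0.36, adjusted p = 0.0479) passed, among the 457 genes called at that setting.

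The kelch genes that stood out on day 3 were on the lower side in anti-miR-106b muscles on day 7 too, without passing the test. Klhl33 differed by -0.31 log2, with bounds of -0.56 and -0.07 (adjusted p = 0.345, limma), and the arms overlapped. Klhl31 differed by -0.19, with bounds of -0.33 and -0.06 (adjusted p = 0.3, limma). For Fbxo32 the bounds were -0.32 and 0.56 log2 and for Trim63 -0.17 and 0.42. Trim54, Trim55 and Fbxo30 had differences of 0.06, -0.03 and -0.01 log2, each smaller than its SE. The signs of these 3, and of Fbxo32 and Trim63, turned when single libraries were left out.

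On day 3, the contrast that took part in the choice, all 10 genes were lower in anti-miR-106b than in scrambled muscles, except that Fbxo30 and Klhl40 turned to 0.16 and 0.14 log2 when scaled to total reads. The differences ran from -1.18 ± 0.12 log2 for Klhl33 to -0.03 ± 0.08 for Fbxo30 (SE), with a median of -0.28, against 0.01 for all tested genes. Klhl33 was at 5.16 to 5.41 log2 CPM in anti-miR-106b and 6.23 to 6.71 in scrambled muscles, the 59th lowest difference of 14063. Klhl31 was at 7.42 to 7.47 in anti-miR-106b and 8.05 to 8.21 log2 CPM in scrambled muscles, a difference of -0.68 ± 0.07. Both pairs of groups were well apart. Fbxo40 differed by -0.44 ± 0.09, Fbxo32 by -0.39 ± 0.22, Trim54 by -0.30 ± 0.11, Klhl41 by -0.27 ± 0.09, Trim55 by -0.23 ± 0.05, Trim63 by -0.20 ± 0.15 and Klhl40 by -0.05 ± 0.11 log2. Of all tested genes 35.7% passed the adjusted threshold in this contrast and 19.4% were lower; no such count is given for the 10. Of all genes that passed, 45.7% were higher on the authors' scaling and 79.0% with total-read scaling. The arms did not overlap for 6 of the 10, Trim54, Trim55, Fbxo40, Klhl31, Klhl33 and Klhl41, where 60.5% of all tested genes did not overlap in either direction. Nothing is read from this count. Total-read scaling moved the median of all genes by 0.19 log2 in this contrast. It brought Trim63 to -0.01, Trim55 to -0.04, Klhl41 to -0.08 and Trim54 to -0.11 log2. Under it Klhl33 was at -0.99, Klhl31 at -0.49, Fbxo40 at -0.25 and Fbxo32 at -0.20.

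The difference between the arms moved in the positive direction from day 3 to day 7 for all 10 genes. This change holds the day 3 contrast, so it too is given without a test. In size the arm difference was smaller on day 7, as for Klhl33 (-1.18, then -0.31 log2). The exceptions were Klhl40 (-0.05, then 0.36) and Klhl41 (-0.27, then 0.28). The change was 0.86 ± 0.17 log2 for Klhl33, 0.71 ± 0.13 for Fbxo40, 0.55 ± 0.12 for Klhl41, 0.51 ± 0.31 for Fbxo32 and 0.49 ± 0.10 for Klhl31. The smallest were 0.20 ± 0.08 for Trim55 and 0.03 ± 0.11 for Fbxo30, and with total-read scaling these fell to -0.02 and -0.19. For Fbxo32 the value depended on single libraries, at 0.32 without anti-miR-106b day 3 replicate 2 and 0.21 without scrambled day 7 replicate 3.

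**Figure D3:**
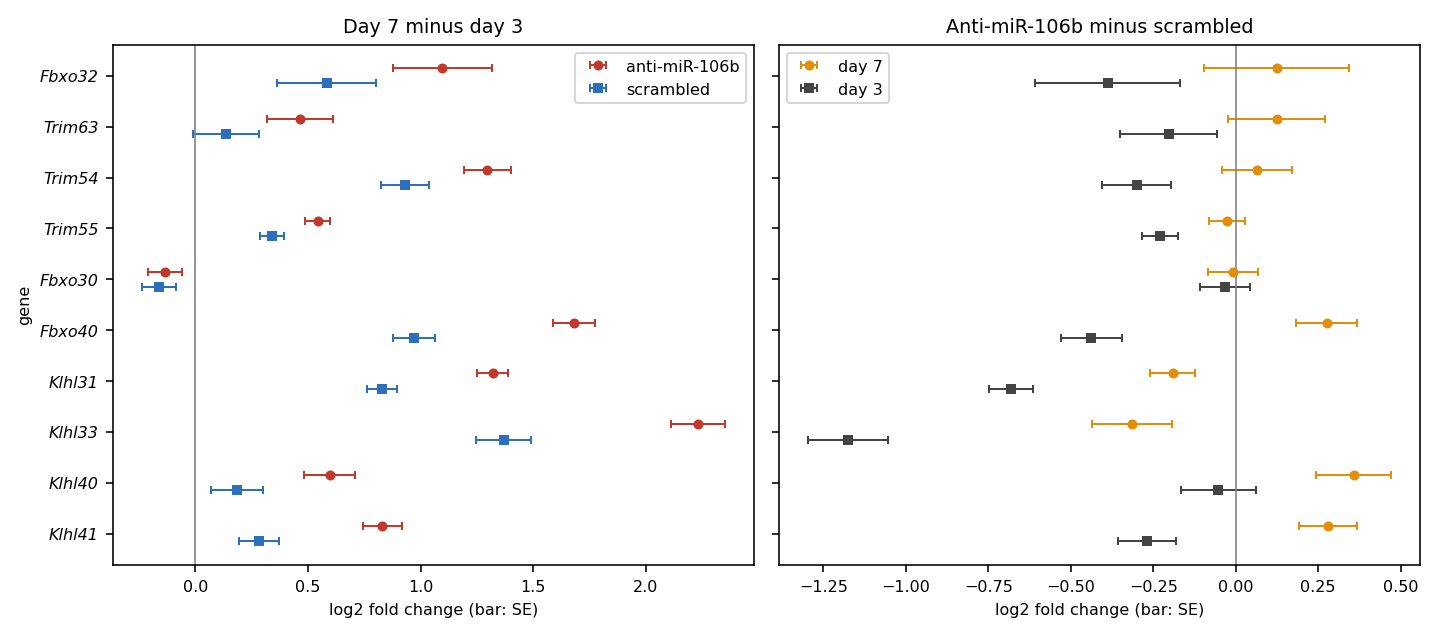
Log2 fold change of each gene (horizontal axis, bar: SE) for day 7 minus day 3 in anti-miR-106b (red circles) and scrambled muscles (blue squares) in the left panel, and for anti-miR-106b minus scrambled on day 7 (orange circles) and day 3 (grey squares) in the right panel. Klhl33 lies farthest from 0 between days, at 2.23 and 1.37, and between arms on day 3, at -1.18, whereas Fbxo30 is at most 0.16 from 0 in each comparison on the authors' scaling; total-read scaling turns the signs named in the text.

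The mature fibre markers moved with these genes, so each gene was also set against the mean log2 CPM of the 6 fibre markers in the same library, a mean that was 14.14 in anti-miR-106b day 7, 14.23 in scrambled day 7, 12.72 in anti-miR-106b day 3 and 13.38 in scrambled day 3. In this ratio Klhl31 was nearly flat, at -5.37 ± 0.04, -5.27 ± 0.08, -5.27 ± 0.08 and -5.25 ± 0.04 log2 in the same order of groups (SD, n = 3 each). Its anti-miR-106b day 7 libraries, -5.42 to -5.35, still all lay below those of anti-miR-106b day 3. On day 3 its arms, -5.33 to -5.18 in anti-miR-106b and -5.29 to -5.21 in scrambled muscles, overlapped. Klhl33 was higher on day 7, at -6.61 ± 0.18 in anti-miR-106b day 7, -6.39 ± 0.20 in scrambled day 7, -7.42 ± 0.15 in anti-miR-106b day 3 and -6.90 ± 0.12 in scrambled day 3. It was the only 1 of the 10 whose anti-miR-106b day 3 libraries all lay below the scrambled ones in this ratio.

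For 7 of the 10, Trim63, Trim54, Trim55, Fbxo30, Fbxo40, Klhl40 and Klhl41, every anti-miR-106b day 3 library was above every scrambled one relative to the fibre markers, where 88.3% of all tested genes did not overlap in either direction in this ratio. The fibre mean was lower in anti-miR-106b day 3, at 12.72, than in scrambled day 3, at 13.38. The ratio therefore moves every gene up in the first group, and nothing particular to the 10 is read from this direction. Between days, 7 of the 10, Klhl31 among them, lay lower on day 7 in anti-miR-106b muscles with no overlap, and 2, Fbxo40 and Klhl33, higher, where 92.7% of all tested genes did not overlap. In scrambled muscles 5 lay lower and 1, Klhl33, higher with no overlap, where 83.9% of all tested genes did not overlap. The fibre mean was higher on day 7 in both arms, so the ratio moves every gene down on that day. Shares of all genes by direction are not given, so nothing particular to the 10 is read from these counts. Klhl41 was at -3.95 ± 0.20 in anti-miR-106b day 7, -4.32 ± 0.22 in scrambled day 7, -3.36 ± 0.12 in anti-miR-106b day 3 and -3.75 ± 0.20 log2 in scrambled day 3, which is the reverse of its order in CPM between days. The means of Fbxo30 lay farthest apart of the 10, at -9.87 ± 0.07, -9.95 ± 0.19, -8.31 ± 0.11 and -8.93 ± 0.18 log2 in that order of groups. On day 7, Fbxo40 and Klhl40 were higher in every anti-miR-106b library than in every scrambled one in this ratio too, where 11.8% of all tested genes did not overlap. These ratios are descriptions, and the part of fibre content in the changes of the 10 genes was not tested beyond them.

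**Figure D4:**
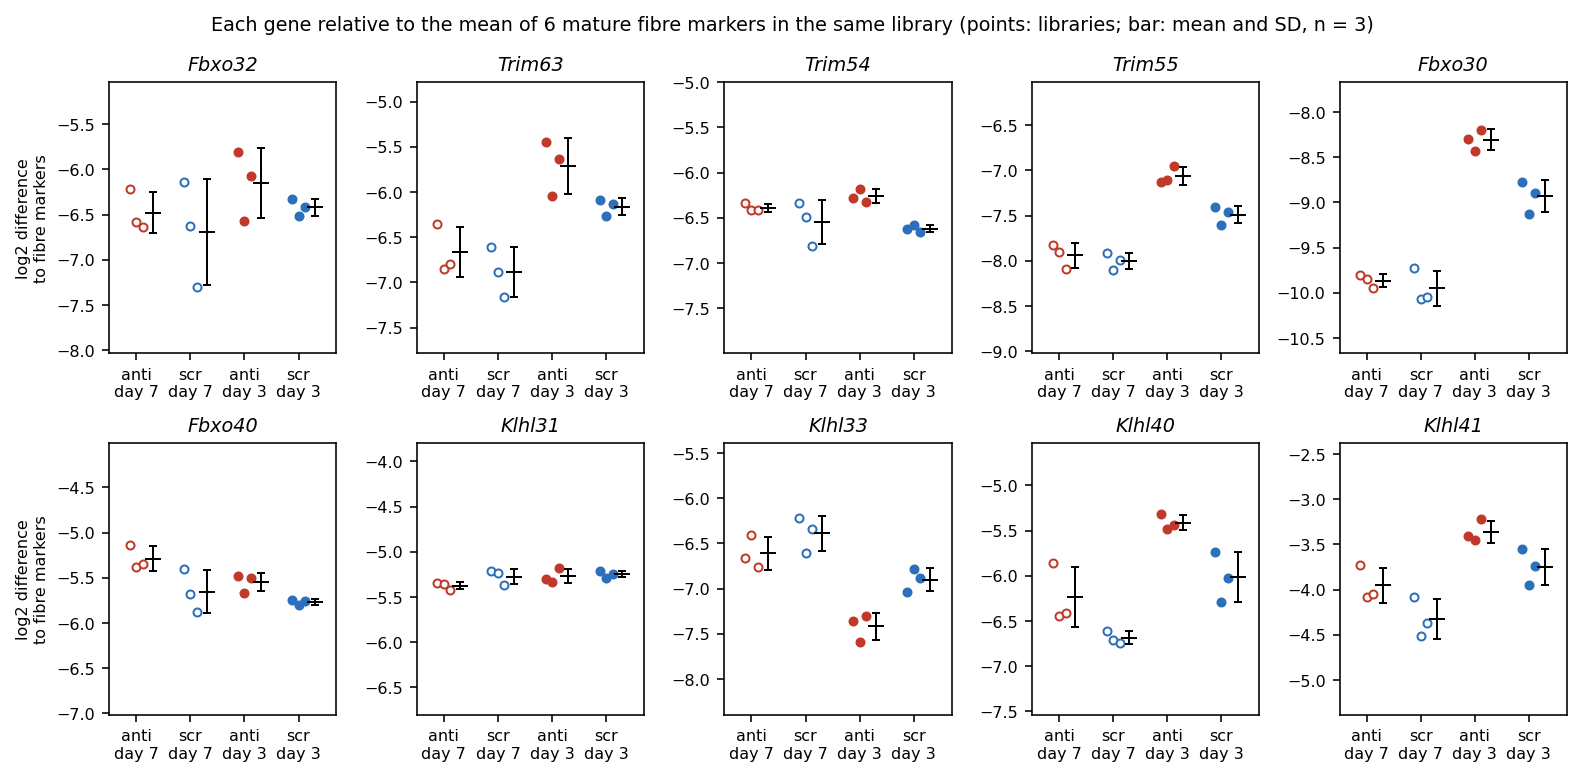
Log2 difference between each gene and the mean of 6 mature fibre markers in the same library (vertical axis, spanning 3 log2 units in each panel), by group, with points for libraries and bars for the mean and SD of 3. Klhl31 is nearly level across the groups, with means between -5.37 and -5.25, though its anti-miR-106b day 7 libraries all lie below those of anti-miR-106b day 3. Klhl33 is highest on day 7, and Fbxo30 is lower on day 7, at -9.87 and -9.95, than on day 3, at -8.31 and -8.93.

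Genes around the 10 in the same pathways are given by counts from lists of known members, set beside the shares of all genes above, and each count is also given with total-read scaling. Of all genes called between days, 48.2% were higher in each arm on the authors' scaling. With total-read scaling 18.1% were higher in anti-miR-106b and 14.8% in scrambled muscles. A list's move towards lower calls under that scaling is therefore shared with all genes. On day 3, 45.7% of all genes called were higher in anti-miR-106b muscles, and 79.0% with total-read scaling. Of 23 substrates and partners of these proteins, 17 rose and 2 fell between days in anti-miR-106b muscles and 15 rose and 1 fell in scrambled muscles (limma, adjusted p below 0.05), against 11 and 7 in anti-miR-106b and 9 and 5 in scrambled muscles with total-read scaling. Myot, which encodes the Z-disc protein myotilin, rose by 1.85 ± 0.10 log2 in anti-miR-106b (adjusted p = 1.07e-09) and 1.01 ± 0.10 in scrambled muscles (adjusted p = 7.57e-07). Neb, which encodes nebulin, rose by 1.55 ± 0.09 (adjusted p = 3.06e-09) and 0.83 ± 0.09 (adjusted p = 3.34e-06, limma) in these arms, and Mybpc1, a myosin binding protein, by 1.41 ± 0.09 and 0.81 ± 0.09. On day 3, 10 of the 23 were lower and 2 higher in anti-miR-106b than in scrambled muscles, and 7 and 2 with total-read scaling.

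Of 21 other muscle ligases and deubiquitinases, 14 rose and 1 fell between days in anti-miR-106b muscles, and 12 rose and 1 fell in scrambled muscles. With total-read scaling 7 were higher and 10 lower in anti-miR-106b and 3 higher and 10 lower in scrambled muscles. That put 41.2% and 23.1% of the list's calls higher in these arms, against 18.1% and 14.8% of all genes called. Asb2, which gives cullin 5 ligases their substrate, rose by 1.72 ± 0.17 log2 in anti-miR-106b (adjusted p = 3.76e-07, limma) and by 1.21 ± 0.17 in scrambled muscles (adjusted p = 2.57e-05). Wwp1, a HECT ligase, rose by 1.22 ± 0.08 and 0.65 ± 0.08 log2, and Mul1, a ligase of the mitochondrial outer membrane, by 0.86 ± 0.06 and 0.53 ± 0.06. On day 3, 10 of these 21 were lower and 0 higher in anti-miR-106b muscles, and 3 lower and 2 higher with total-read scaling.

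Of 20 listed genes of cullin ligase machinery and of ubiquitin-conjugating enzymes, 14 rose and 2 fell in each arm. With total-read scaling 4 were higher and 9 lower in anti-miR-106b and 3 higher and 8 lower in scrambled muscles. Of the list's calls 30.8% and 27.3% were then higher, against 18.1% and 14.8% of all genes called. The ubiquitin-conjugating enzyme genes Ube2b and Ube2d1 rose, Ube2b by 1.45 ± 0.09 log2 in anti-miR-106b (adjusted p = 3.60e-09, limma) and 0.89 ± 0.09 in scrambled muscles (adjusted p = 1.14e-06). Cand1, which exchanges the substrate receptors of cullin 1, fell, with differences of -1.19 ± 0.08 log2 in anti-miR-106b (adjusted p = 1.60e-08, limma) and -0.85 ± 0.08 in scrambled muscles (adjusted p = 1.17e-06). Of 21 upstream regulators of the atrophy ligases, 12 rose and 7 fell in anti-miR-106b muscles, and 12 rose and 6 fell in scrambled muscles. With total-read scaling these regulators were 6 higher and 11 lower and 4 higher and 8 lower in these arms, or 35.3% and 33.3% of calls higher. Those named by rank were Prkaa2, a catalytic subunit of the energy sensor AMPK, at 1.95 ± 0.09 and 0.99 ± 0.09 log2, Ppargc1a, which drives mitochondrial biogenesis and restrains FOXO3, at 1.94 ± 0.12 and 1.12 ± 0.12, and Klf15, a glucocorticoid-induced factor, at 1.56 ± 0.12 and 0.95 ± 0.12 in anti-miR-106b and scrambled muscles.

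Of 19 tested genes of the denervation and atrophy response, 11 fell and 4 rose between days in each arm. Their medians were -0.97 log2 in anti-miR-106b and -0.58 in scrambled muscles on the authors' scaling. With total-read scaling 15 fell and 1 rose in each arm. Myog, which encodes the myogenic factor myogenin and also rises in differentiating muscle cells, fell, with differences of -3.89 ± 0.22 log2 in anti-miR-106b (adjusted p = 1.96e-09, limma) and -3.203 ± 0.22 in scrambled muscles (adjusted p = 4.75e-08). Chrnd, the delta subunit of the acetylcholine receptor, differed by -3.08 ± 0.18 and -2.55 ± 0.18 log2 in these arms, and Ctsl, a lysosomal protease, by -1.13 ± 0.07 in both. On day 3, 10 of the 19 were higher and 0 lower in anti-miR-106b than in scrambled muscles, and 14 and 0 with total-read scaling. Of all genes called on that day, 45.7% were higher, and 79.0% with total-read scaling. The list shares Myog and Ncam1 with the regenerating fibre markers, whose sums are given above.

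In the wider families the scaling mattered as well, as it did for all genes. Of all genes called between days, 18.1% in anti-miR-106b and 14.8% in scrambled muscles were higher with total-read scaling. Of 35 other kelch genes tested, 19 rose and 8 fell between days in anti-miR-106b muscles and 14 rose and 7 fell in scrambled muscles, turned by total-read scaling to 11 higher and 19 lower and to 7 higher and 16 lower. Kbtbd13, another gene of nemaline myopathy, was up by 2.06 ± 0.13 and 1.28 ± 0.13 log2 in these arms, and Klhl6, a gene of B cells, was down, at -2.53 ± 0.11 and -1.77 ± 0.11. Of 24 other F-box only genes, 13 rose and 6 fell in anti-miR-106b muscles and 11 rose and 6 fell in scrambled muscles, turned to 6 higher and 16 lower and to 4 higher and 15 lower, and Fbxo9 differed by 1.30 ± 0.06 and 0.92 ± 0.06 log2. Of 41 other tripartite motif genes, 7 rose and 24 fell in anti-miR-106b muscles and 7 rose and 22 fell in scrambled muscles, against 4 higher and 35 lower and 3 higher and 32 lower with total-read scaling, and the interferon-induced Trim30a was at -3.11 ± 0.13 and -2.38 ± 0.13 log2. On day 7 no gene of these lists, which hold 199 genes in all, differed between the arms by the adjusted test (limma), and voom weights also gave 0, while library weights gave 1. At an unadjusted p below 0.05 there were 25, and without scrambled day 7 replicate 1 the counts passing the adjusted test summed to 9 over the lists.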

How the data were processed

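RNA from 12 tibialis anterior muscles was sequenced from TruSeq libraries, per the labels' protocols. The mm10 build, featureCounts, STAR, limma 3.34.9, edgeR 3.20.9, Trim Galore 0.4.3.1 and FastQC 0.72 are named, in no stated order, in the submitters' processing notes. The deposited table holds log2 CPM for 28116 symbols in 12 columns, scaled by the authors' library factors (from the values). Whole reads could be worked back from all values within 0.01, with an average prior of 0.25 reads; they gave 28857739 to 42825246 reads per library and were used for depth and voom. No batch is given in the labels.

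The log2 values as deposited were fitted with limma 3.58.1 in R 4.3.3: 1 mean per group, all 12 libraries, empirical Bayes with trend, 8 residual degrees of freedom. The 14063 genes at 1 CPM or more in at least 3 libraries were kept, p-values are two-sided, and Benjamini-Hochberg adjustment ran over all of them, with calls at an adjusted p below 0.05. The script was tested on simulated data. Alternatives were other filters, 1 or 5 CPM added, total-read and quantile scaling, no trend, library weights, voom, separate fits, a replicate block, a threshold of 0.01 and each library left out.

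The members and lists were chosen with earlier results of these data known. All 10 members are named. For Fbxo32, Trim63, Klhl31 and Klhl33 the 3 genes with the highest Pearson correlation are named, and of each list the 3 with the smallest p between days in scrambled muscles, of which some are given only by their list's count. Replicate numbers were checked for pairing: deviations of same-numbered libraries from their group means correlated at -0.18 to 0.14. The main fit treated the libraries as unpaired. This check cannot show whether groups shared animals, since shared animals could carry different numbers. Gene positions and 3′ UTRs come from GENCODE M21 (GRCm38), and microRNA and promoter sequences from RefSeq (GRCm38.p6). Python 3.11.15 was used for tables. Skp1 and Rbx2, from the list of cullin ligase genes, were not analysed here, and Dach2 was below the level for testing.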

Additional observations from a re-analysis of the deposited data

Results flagged for a closer look

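For Fbxo40 and Klhl41 every library of the arms was apart on both days on the authors' scaling, in opposite directions: lower in anti-miR-106b muscles on day 3 and higher on day 7. With total-read scaling the day 3 difference was -0.25 log2 for Fbxo40 and only -0.08 for Klhl41. On day 7 it was 0.25 for both under that scaling. The change of the arm difference between days was 0.71 log2 for Fbxo40 and 0.55 for Klhl41, and it was not tested, because the day 3 contrast took part in choosing the genes. For Klhl41 the arms on day 7 were separated by less than 0.01 log2 at their closest libraries.

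Among the named genes of the lists, the arm difference changed between days by the interaction test over all genes (limma, adjusted p below 0.05) for 16 of 24, where 22.3% of all tested genes passed. It moved in the positive direction from day 3 to day 7 for Prkaa2 (0.96 log2), Ppargc1a (0.82), Klf15 (0.61), Mul1 (0.33), Wwp1 (0.58), Ube2d1 (0.48), Ube2b (0.56), Myot (0.85), Mybpc1 (0.60), Neb (0.72), Kbtbd13 (0.77), Fbxo9 (0.39) and Fbxo3 (0.49). Each of these was lower in anti-miR-106b than in scrambled muscles on day 3 and differed less on day 7. Prkaa2 was at -0.915 and then 0.05 log2, and Neb at -0.69 and then 0.03. Myot, with the largest day 7 difference of these, was at -0.56 and then 0.29. The arm difference moved the other way for Klhl6 (-0.76 log2), Trim30a (-0.74) and Trim30d (-0.61, adjusted p = 0.0495, limma). These genes were higher in anti-miR-106b muscles on day 3, by 0.67, 0.54 and 0.43 log2. On day 7 they differed by -0.09, -0.20 and -0.18. All 24 named genes were picked for their change between days in scrambled muscles, which shares libraries with this contrast. The count of 16 is therefore not free of that choice, and nothing is read from it against the share of all genes.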

How the results depend on the processing

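The counts of the 10 genes called between days, either direction, were 7 to 9 in anti-miR-106b muscles and 5 to 9 in scrambled muscles over the settings run. With total-read scaling the 5 in scrambled muscles were 4 higher and 1 lower, in place of 7 higher. With single libraries left out they were 8 to 9 and 6 to 7. The median difference of the 10 between the arms on day 3 was -0.094 log2 with total-read scaling in place of -0.28, and -0.34 to -0.23 with single libraries left out. The count of the 10 genes called between the arms on day 7 was 0 throughout, except 2 without scrambled day 7 replicate 1, so 0 to 2. With the replicate number as a block the counts were 9, 7 and 0 for the days in anti-miR-106b, the days in scrambled muscles and the arms on day 7. Over all genes the count between the arms on day 7, 9 as reported, was 23 with that block, of which 1 was a gene of the lists, and 1 to 58 over the settings that leave out no library.

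Signs turned with total-read scaling between days for Trim55 (-0.082 in anti-miR-106b and -0.067 in scrambled muscles), Trim63 (-0.16 and -0.27), Klhl40 (-0.029 and -0.22) and Klhl41 in scrambled muscles (-0.12). With quantile normalization they turned for Klhl40 (-0.023), Klhl41 (-0.15) and Trim63 (-0.050) in scrambled muscles and Fbxo30 (0.012) in anti-miR-106b muscles. Between the arms on day 7 they turned with single libraries left out: the differences ran from -0.17 to 0.36 for Fbxo32, -0.062 to 0.13 for Trim54 and -0.0070 to 0.22 for Trim63, lowest without scrambled day 7 replicate 3 in each, from -0.050 to 0.0036 for Trim55, and from -0.050 to 0.062 for Fbxo30. With library weights they turned for Fbxo30 (0.029) and Trim54 (-0.0041). Fbxo30 fell between days past the threshold with total-read scaling, by 0.76 log2 in anti-miR-106b and 0.57 in scrambled muscles, and in scrambled muscles also with library weights or without scrambled day 7 replicate 1. Klhl40 passed in scrambled muscles with library weights (adjusted p = 0.0283). The cause was not tested. With 3 libraries per group and within-group SD up to 0.343 log2, differences between arms in Fbxo32 and Trim63 are the least precise.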
